A study of Mus musculus with 11 samples.

Results

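De novo fatty acid synthesis, the making of fatty acids from small carbon units in the cytosol, is described here through 10 genes of the pathway and its control in the mouse mammary gland. The genes were taken by name and not by a rule on their values, but with earlier results of these data known. They are Slc25a1, Acly, Acss2, Me1, Acaca, Fasn, Olah, Thrsp, Srebf1 and Mlxipl, 10 of the 22196 genes obtained, and all 10 passed the filter on low counts that left 12716 genes for testing. None of the 10 differed between genotypes past the threshold, an adjusted p under 0.05, against 7 of the 12716 genes (0.0550%). From library to library, 6 of the 10 varied together.

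The study sequenced RNA of whole inguinal mammary glands from 6 knockout and 5 wild-type mice. All mice were homozygous for a Tsc1 allele flanked by Cre target sites (Tsc1-fl/fl). Knockout mice also carried 1 copy of the Adipoq-Cre transgene (Tsc1-fl/fl; Adipoq-Cre-Tg/+), and wild-type mice did not (Tsc1-fl/fl; Adipoq-Cre-+/+). The Adipoq promoter drives Cre in adipocytes, so that Tsc1, whose product restrains the growth kinase complex mTORC1, is to be deleted in fat cells and not in the epithelium that makes milk. All mice ate normal chow, and the glands were taken 16 days after delivery (age label PND16.5). The labels do not say whether the animals were lactating.

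Depth ranged from 25817975 to 37894237 estimated reads per library. The 9 markers of milk secretory epithelium summed to between 340616 and 593888 CPM (counts scaled to one library size with TMM factors) over the 11 libraries, and the 9 adipocyte markers to between 614 and 828 CPM; no marker of either list was at 0 in any library. Tsc1 itself averaged 10.1 ± 1.33 CPM (SD) in the 6 knockout glands and 10.7 ± 1.11 CPM (SD) in the 5 wild-type glands, and its fitted log2 difference was -0.09 ± 0.11 (SE; adjusted p = 0.772 in edgeR). Gene sums over the whole gland do not separate the deleted exons or the adipocytes, so Tsc1 does not check the labels. In whole tissue, fewer cells of a type and less RNA per cell cannot be told apart, and this holds for every level below.

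In the pathway, citrate leaves the mitochondrion and is cleaved to acetyl-CoA, acetyl-CoA carboxylase turns acetyl-CoA into malonyl-CoA, and fatty acid synthase joins malonyl units into a growing chain with NADPH as the reductant. The mammary epithelium is known for very high rates of this synthesis during lactation and for releasing medium-chain acids into milk. Adipocytes run the same pathway. The transcription factors SREBP-1 and ChREBP are known activators of its genes in liver, fat and mammary gland.

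Promoter sequence is shown for genes that stood on either side of the division described below: Fasn, Acly and Srebf1 varied together, while Slc25a1 and Mlxipl had lower correlations with them over the 11 libraries. Each line gives the 120 bases before an annotated transcription start, 5′ to 3′, from RefSeq on GRCm38.p6. Capitals mark matches on either strand to CCAAT, to the GC box GGGCGG or to the E-box CACGTG, which SREBP-1, ChREBP and USF proteins are known to bind. Only stretches outside annotated exons are printed.
Fasn (chr11:120824548-120824667, minus strand): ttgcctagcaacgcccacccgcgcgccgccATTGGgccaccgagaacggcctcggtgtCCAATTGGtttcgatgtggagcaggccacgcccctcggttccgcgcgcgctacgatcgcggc
Acly (chr11:100528001-100528120, minus strand): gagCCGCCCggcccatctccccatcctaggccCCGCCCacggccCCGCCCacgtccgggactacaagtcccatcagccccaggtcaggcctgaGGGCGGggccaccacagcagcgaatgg
Srebf1, upstream first exon (chr11:60220628-60220747, minus strand): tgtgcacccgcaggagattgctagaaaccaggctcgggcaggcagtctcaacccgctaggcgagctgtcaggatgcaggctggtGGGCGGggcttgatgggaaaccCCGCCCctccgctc
Srebf1, next first exon (chr11:60210472-60210591, minus strand): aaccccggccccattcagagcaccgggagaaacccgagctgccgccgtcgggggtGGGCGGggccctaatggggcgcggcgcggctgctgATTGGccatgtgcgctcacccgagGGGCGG
Slc25a1 (chr16:17928220-17928339, minus strand): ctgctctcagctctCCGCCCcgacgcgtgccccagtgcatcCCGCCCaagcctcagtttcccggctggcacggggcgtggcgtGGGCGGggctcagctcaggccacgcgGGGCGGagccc
Mlxipl (chr5:135089770-135089889, plus strand): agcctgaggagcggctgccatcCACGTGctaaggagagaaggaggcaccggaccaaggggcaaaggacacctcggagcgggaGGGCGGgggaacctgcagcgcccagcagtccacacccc

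The Fasn stretch held 3 CCAAT matches, of which 2 overlap on opposite strands, and no GC box, and the Acly stretch held 4 GC boxes. The start of the upstream Srebf1 exon had 2 GC boxes before it, and that of the next first exon had 2 GC boxes and 1 CCAAT match. Slc25a1 had 4 GC boxes in the stretch shown, and Mlxipl had 1 GC box and 1 E-box. Over the whole 250 bases before the start, CCAAT occurred in 8 of 14 promoters of the members, against 33.8% of 32851 mouse promoters of the same length. GGGCGG occurred in 7 of the 14, against 32.7%, and CACGTG in 2, those of Slc25a1 and Mlxipl, against 6.02%. The sterol regulatory element TCACNCCAC was found once, before the second Mlxipl start, against 1.05% of all promoters. The STAT motif TTCNNNGAA was found in 0 of the 14, against 7.02%. CCAAT matched before Fasn, Srebf1 and Thrsp among the 6 genes that varied together and before all of the other 4. For Me1 the match lay only before the start of Me1-202, which held 0.0106% of Me1 TPM in knockout and 0.0148% in wild-type glands. The start matched to Acaca, at 84195438, lies downstream of the transcript start of Acaca-202, at 84173122. The split of CCAAT between the sets is therefore not read as a difference between them. A match in these letters is a description and not a measured binding site.

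Compared per length, as TPM (a transcript level per length, scaled to one total in every library), the most abundant member was Thrsp, which encodes the small protein Spot 14 of lipogenic tissues. It averaged 2272 ± 640 TPM (SD, n = 11) and ranked 18 of all genes. Olah, the thioesterase that releases medium-chain acids from fatty acid synthase, followed at 594 ± 141 TPM and ranked 45. Fasn averaged 230 ± 59.6 TPM and Me1 149 ± 24.3 TPM. Acly, at 122 ± 29.6 TPM, was higher than Slc25a1, at 55.8 ± 9.05 TPM, in all 11 libraries. The ranges of Fasn and Me1 overlapped, as did those of Me1 and Acly, so these neighbours were not separated by more than the spread.

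**Figure D1:**
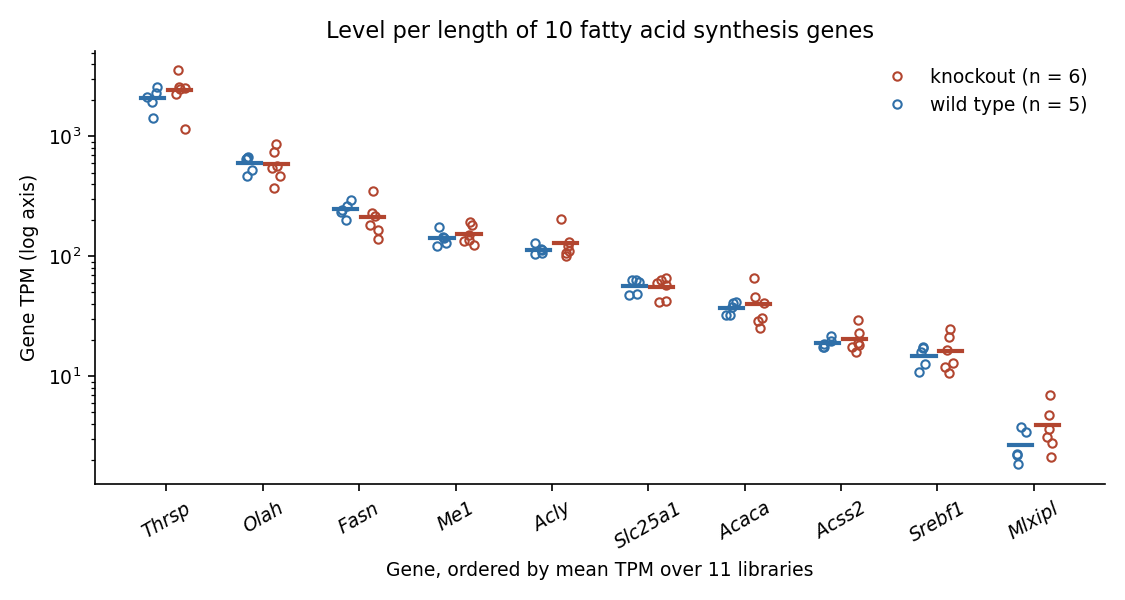
Gene TPM (log axis) of the 10 genes in every library, ordered by mean TPM; open circles are single libraries (6 knockout, 5 wild-type) and short lines are group means. Thrsp, at a mean of 2272 TPM, stands highest and Mlxipl, at 3.34 TPM, lowest, and the circles of both genotypes overlap for every gene.

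Acaca averaged 38.5 ± 11.2 TPM (SD, n = 11), less than Slc25a1 in 10 of 11 libraries. Acss2 averaged 19.7 ± 3.71 TPM. The factor genes were lowest, Srebf1 at 15.6 ± 4.48 TPM and Mlxipl at 3.34 ± 1.50 TPM. The range of Acaca overlapped those of its neighbours Slc25a1 and Acss2, and the range of Acss2 that of Srebf1. Srebf1 and Mlxipl did not overlap, and their means differed 4.67-fold. TPM has no TMM scaling, and on it the group means of Acaca, Acly, Acss2, Me1 and Srebf1 were higher in knockout glands, the opposite of the CPM means given below. Thus knockout and wild-type means were 39.6 and 37.2 TPM for Acaca, 130 and 114 TPM for Acly, and 16.3 and 14.8 TPM for Srebf1.

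The comparison of knockout with wild-type glands asks whether loss of Tsc1 in adipocytes goes with other levels of these transcripts in the gland. Of the 10 members, 0 passed an edgeR adjusted p of 0.05, against 7 of 12716 genes, or 0.0550%. At an unadjusted p under 0.05 there were 0 members, against 12.4% of all genes, and the CPM ranges of the genotypes were apart for 0 members, against 1.32% of all genes. DESeq2 also called 0 of the 10, against 135 of the 14058 genes it gave an adjusted p, or 0.960%. The fitted value was below 0 for 8 members and above 0 for 2, with a median of -0.14 on the log2 scale against -0.01 over all genes tested. This direction depended on scaling: with library totals only, chosen after seeing the data, 3 members were below 0 and 7 above, the members' median was 0.06, and the median of all genes rose by the same step to 0.18.

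The 4 genes that supply carbon and reductant are taken first. Slc25a1 (ENSMUSG00000003528, chromosome 16, 17925223 to 17928219, GRCm38), the citrate carrier of the inner mitochondrial membrane, had 67.7, 88.5 and 107 CPM as the lowest, median and highest of the 6 knockout libraries. The 5 wild-type libraries had 96.1, 119, 101, 92.1 and 111 CPM. Knockout 1, 4 and 6 lay below every wild-type library, and the other 3 fell within their range. Means of 88.2 ± 16.0 CPM in knockout glands (SD, n = 6) and 104 ± 11.1 CPM in wild-type glands (SD, n = 5) gave a log2 fold change of -0.24 ± 0.12 (SE; 95% interval -0.50 to 0.03; edgeR adjusted p = 0.466). This was the smallest p-value of the 10, at 0.0797 before adjustment, and the value shrank to -0.04 with library totals only.

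Acly (ENSMUSG00000020917, chromosome 11, 100476353 to 100528000), which encodes the enzyme that cleaves cytosolic citrate to acetyl-CoA, ran from 766 over a median of 931 to 1786 CPM in knockout glands. The wild-type glands had 1196, 1045, 1116, 891 and 1174 CPM. Knockout 5 stood alone at 1786 CPM, while Knockout 1 and Knockout 2 lay below every wild-type library. The means of 1062 ± 373 CPM for knockout (SD, n = 6) and 1084 ± 123 CPM for wild type (SD, n = 5) gave a log2 fold change of -0.03 ± 0.19 (SE; 95% interval -0.45 to 0.39; edgeR adjusted p = 0.968). It was -0.24 without Knockout 5 and 0.15 with library totals only.

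Acss2 (ENSMUSG00000027605, chromosome 2, 155517948 to 155585724), which makes acetyl-CoA from acetate, ran from 86.0 over a median of 91.3 to 132 CPM in knockout and stood at 108, 114, 110, 102 and 102 CPM in wild-type glands. In 5 of 6 knockout libraries it was below every wild-type library, and in Knockout 2 above them all. Knockout minus wild type came to -0.13 ± 0.11 on the log2 scale (SE; 95% interval -0.36 to 0.10; edgeR adjusted p = 0.632) and turned to 0.07 with library totals only. Without Knockout 2 it was -0.24 (edgeR adjusted p = 0.256). A gene on the opposite strand, Gss, overlaps Acss2 at 16.9 CPM, and the strand setting of the counting is not given in the sources used here.

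Me1 (ENSMUSG00000032418, chromosome 9, 86581371 to 86695953), the cytosolic malic enzyme and a source of NADPH, ran in knockout libraries from 510 over a median of 543 to 668 CPM, and in wild-type libraries it had 574, 632, 630, 527 and 731 CPM. Its log2 difference was -0.14 ± 0.10 (SE; 95% interval -0.36 to 0.08; edgeR adjusted p = 0.593), or 0.06 with library totals only and -0.07 without Wild-Type 5. The interval of Me1 leaves room for a level between 0.781-fold and 1.06-fold of wild type.

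The committed step and chain building come next. Acaca (ENSMUSG00000020532, chromosome 11, 84129672 to 84401651), acetyl-CoA carboxylase 1, ran from 314 over a median of 456 to 952 CPM in knockout glands and stood at 709, 588, 660, 425 and 628 CPM in wild-type glands. Knockout 5 was above and Knockout 2 and 6 below every wild-type library. The fitted log2 difference was -0.18 ± 0.25 (SE; 95% interval -0.73 to 0.37; edgeR adjusted p = 0.810), and 0.01 with library totals only. Single libraries moved it, to -0.42 without Knockout 5 and to -0.06 without Knockout 2.

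Fasn (ENSMUSG00000025153, chromosome 11, 120805846 to 120824547), fatty acid synthase, had the most reads of the 10, from 78084 to 208895 per library. It ran from 2663 over a median of 3809 to 7669.8 CPM in knockout glands. Wild-type glands had 6387, 7393, 5446, 4799 and 6074 CPM. Knockout 1, 2, 3 and 6 lay below every wild-type library, Knockout 4 within their range and Knockout 5 above them, so the groups overlapped. The means were 4450.3 ± 1747 CPM for knockout (SD, n = 6) and 6019.8 ± 980 CPM for wild type (SD, n = 5). The log2 fold change of -0.44 ± 0.23 (SE; 95% interval -0.93 to 0.06) was the largest of the 10 and did not pass (edgeR adjusted p = 0.468). Without Knockout 5 it was -0.66, with an edgeR adjusted p of 0.243, the smallest of any member under any alternative run, and without Knockout 2 it was -0.32 (edgeR adjusted p = 0.590). Over all sets with 1 library left out the adjusted p of Fasn reached 0.733 in edgeR. With library totals only it was -0.26, still negative.

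Olah (ENSMUSG00000026645, chromosome 2, 3341982 to 3397210) ran from 384 over a median of 582 to 1014 CPM in knockout glands and had 928, 863, 692, 553 and 822 CPM in wild-type glands. Knockout 4 and 5 were above and Knockout 1 and 2 below every wild-type library. For Olah the log2 fold change was -0.20 ± 0.24 (SE; 95% interval -0.73 to 0.32; edgeR adjusted p = 0.765), or -0.03 with library totals only. It was -0.36 without Knockout 5 and -0.08 without Knockout 2.

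The ratio of Olah to Fasn within a library needs no scaling between libraries. The log2 ratio of their TPM was 1.29, 1.41, 1.47, 1.77, 1.3 and 1.58 in Knockout 1 to 6 and 1.47, 1.13, 1.23, 1.16 and 1.33 in Wild-Type 1 to 5. Olah was thus above Fasn per length in every library, and the ranges of the genotypes overlapped. The means of 1.47 ± 0.18 (SD, n = 6) and 1.26 ± 0.14 (SD, n = 5) differed by 0.21 (exact two-sided permutation test, p = 0.0649; the smallest p the 462 splits allow is 0.00433). The difference did not pass 0.05, and its p-value lay on either side of 0.05 as settings changed: 0.0286 without Wild-Type 1 (difference 0.26), 0.0433 on counts in place of TPM, and up to 0.133 with 1 library left out (exact permutation tests). The difference was smallest, at 0.14, without Knockout 4.

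Thrsp (ENSMUSG00000035686, chromosome 7, 97412938 to 97417730) had knockout values from 456 over a median of 1122 to 1629 CPM and wild-type values of 1448, 1024, 851, 902 and 1150.5 CPM. Knockout 5 was the highest and Knockout 2 the lowest of all libraries. Between genotypes the log2 difference was 0.01 ± 0.26 (SE; adjusted p = 0.988 in edgeR), and its 95% interval of -0.56 to 0.59 spans levels from 0.678-fold to 1.50-fold of wild type. The value changed sign in 7 of 22 alternatives, running from -0.13 without Knockout 5 to 0.19 with library totals only.

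The regulators follow. Srebf1 (ENSMUSG00000020538, chromosome 11, 60199089 to 60222581), the gene of the membrane-bound factor SREBP-1, ran from 85.2 over a median of 134 to 227 CPM in knockout glands and stood at 176, 184, 124, 107 and 167 CPM in wild-type glands. Knockout 5 was above every wild-type library, and Knockout 2 and 6 below. The log2 fold change was -0.10 ± 0.24 (SE; 95% interval -0.62 to 0.41; edgeR adjusted p = 0.889), and it turned to 0.09 with library totals only. The opposite-strand gene Rai1 overlaps Srebf1 at 18.1 CPM.

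Srebf1 is read from alternative first exons, which give the forms SREBP-1a and SREBP-1c. Transcript Srebf1-201 starts its coding sequence in the upstream first exon (60220453 to 60220543), with 91 coding bases there, and Srebf1-207 in the next one (60210336 to 60210354), with 19 coding bases. Of the TPM of these 2 transcripts, the upstream, SREBP-1a type took 94.66%, 98.49%, 97.09%, 96.19%, 94.23% and 97.08% in Knockout 1 to 6 and 96.00%, 98.02%, 94.65%, 97.02% and 95.45% in Wild-Type 1 to 5. The means were 96.3% ± 1.61 (SD, n = 6) and 96.2% ± 1.32 (SD, n = 5), 0.06 percentage points apart (exact two-sided permutation test, p = 0.944). Most sequences quantified appear to be coding only, so the share rests on 91 and 19 distinct bases, and the annotated Srebf1-207 also ends early, at base 60200463 against 60199925. Another coding model, Srebf1-203, starts its coding sequence downstream of both exons, at 60207188. It held 12.1% of Srebf1 TPM in knockout and 15.3% in wild-type glands on average, and was left out of the share. The share is the estimate of the authors' quantification and its level need not be that of the forms in the gland.

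Mlxipl (ENSMUSG00000005373, chromosome 5, 135089890 to 135138382), which encodes the carbohydrate-responsive factor ChREBP, was the weakest member, with 267 to 759 reads per library. Knockout values ran from 9.76 over a median of 12.7 to 16.9 CPM, and wild-type values were 9.35, 16.6, 14.6, 13.5 and 9.55 CPM. The groups overlapped over nearly their whole range. The log2 fold change was 0.07 ± 0.18 (SE; 95% interval -0.33 to 0.46; edgeR adjusted p = 0.911) and 0.27 with library totals only. It was also 0.27 with transcript length offsets, 0.25 on the authors' table and 0.37 on log2(TPM + 1), with adjusted p-values of 0.694 (edgeR), 0.723 and 0.374 (limma). Partial transcript models took part of its TPM, and the longest, Mlxipl-201, held 48.5% of it in knockout and 55.6% in wild-type glands on average. Of the 31-base words in its transcripts 0.533% occur in another gene, while the other 9 members share none.

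**Figure D2:**
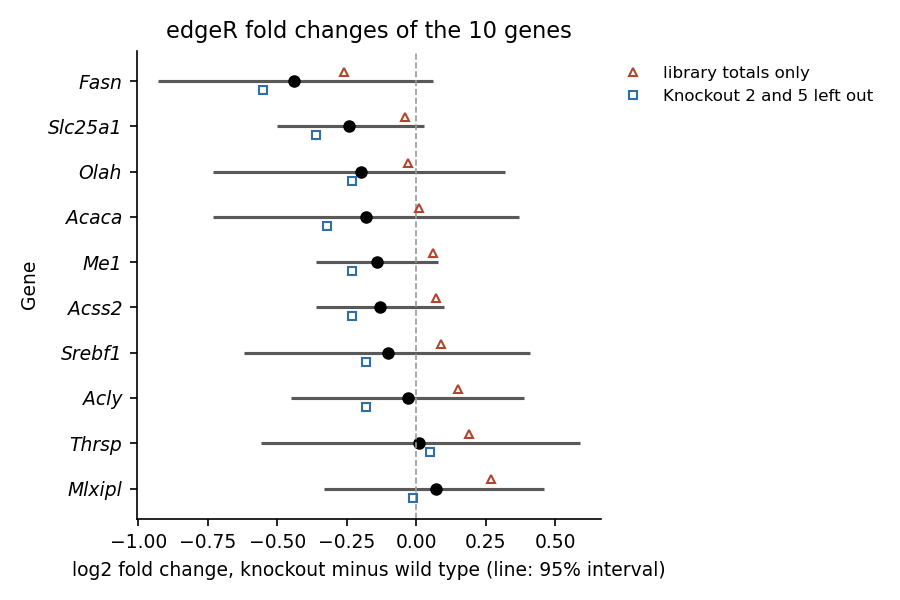
Log2 fold change of each gene, knockout minus wild type (filled points, edgeR with TMM scaling; lines, 95% intervals), with the values for library totals only (triangles) and without Knockout 2 and Knockout 5 (squares). Every interval includes 0, and with library totals only the values of Acaca, Acly, Acss2, Me1 and Srebf1 lie above 0.

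The spread between knockout glands was wider than between wild-type glands for 8 of the 10. This count was not made over all genes tested, so it is not read as a trait of these 10. The coefficient of variation of Fasn was 39.3% in knockout and 16.3% in wild-type glands, that of Acly 35.1% and 11.3%, and that of Acaca 42.8% and 18.0%. These knockout values rested on single libraries: without Knockout 5 they were 22.1% for Fasn, 14.1% for Acly and 24.6% for Acaca, and without Knockout 2 and Knockout 5 they were 15.4%, 11.8% and 19.3%, near those of wild type. Without both, the spread was wider in knockout for 5 of the 10. The wild-type value fell to 5.95% for Acly and 7.95% for Acaca without Wild-Type 4. With all libraries it was smaller in knockout for Me1 (10.9% and 12.3%) and Mlxipl (21.1% and 25.0%). Knockout 5 had the highest value of all 11 libraries for Fasn, Acaca, Acly, Olah, Thrsp and Srebf1, and Knockout 2 the lowest for the same 6 genes, on CPM as on TPM. The 10 genes together took 1.43% of the estimated reads in Knockout 5 and 0.636% in Knockout 2, and from 0.820% to 1.10% in wild-type libraries.

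**Figure D3:**
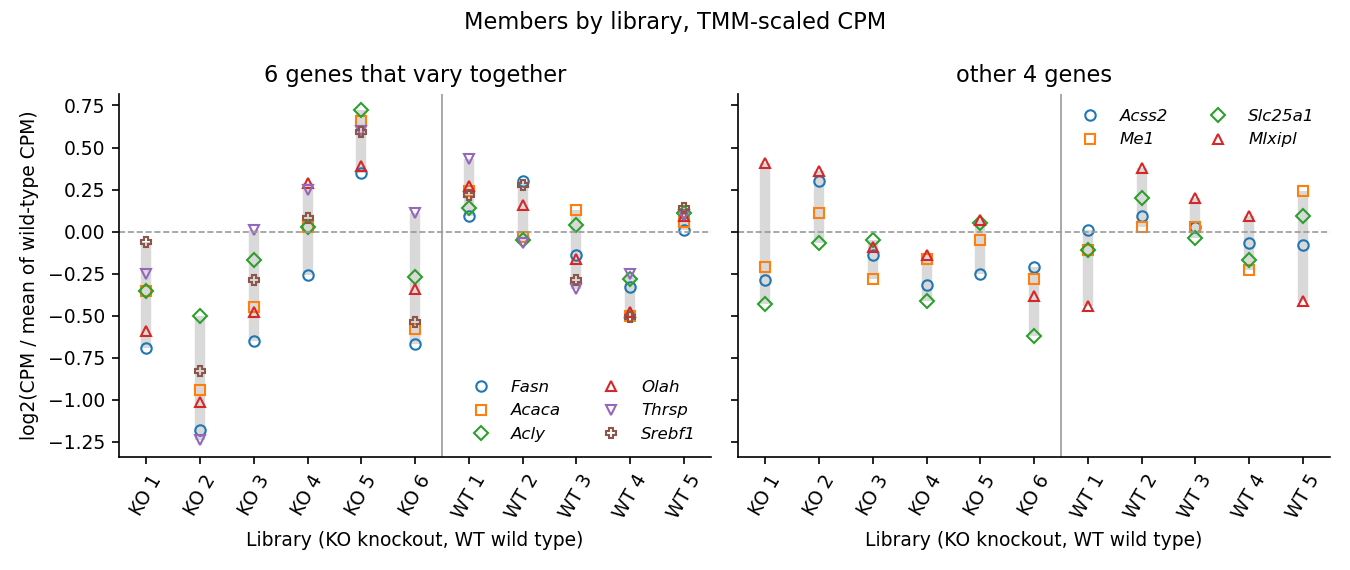
Log2 ratio of each gene's CPM to its wild-type mean in every library, with Fasn, Acaca, Acly, Olah, Thrsp and Srebf1 on the left and the other 4 genes on the right; grey bars span the genes shown. The 6 genes on the left are all highest in Knockout 5 and all lowest in Knockout 2, where Acss2, on the right, has its highest value (0.30).

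These 6 genes, grouped after their values were seen and so described with no test, moved together over the 11 libraries. Pearson r of log2 CPM between 2 of them ran from 0.72 to 0.94 over 15 pairs (median 0.85), and Spearman rho from 0.55 to 0.93. Fasn and Srebf1 had r = 0.86, Acaca and Acly 0.94, and Olah and Fasn 0.91. After each genotype was centred on its own mean, r ran from 0.76 to 0.95. The libraries share scaling and depth, whose part was not tested, and with library totals only r ran from 0.63 to 0.89. It rested in part on the extremes: without Knockout 2 and Knockout 5 the values ran from 0.24 to 0.92, with a median of 0.76.

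The other 4 genes had lower correlations with these 6. Between one of the 6 and one of the 4, r ran from -0.68 (Thrsp and Acss2) to 0.52 (Fasn and Slc25a1), with a median of -0.16 over 24 pairs. Without Knockout 2 and Knockout 5 that median was 0.38, against 0.76 within the 6. The contrast between the sets was thus smaller in the remaining 9 libraries. There Fasn had r = 0.74 with Slc25a1, 0.75 with Me1, 0.74 with Acss2 and -0.02 with Mlxipl. Within the 6 it had 0.80 with Olah, 0.78 with Acaca, 0.76 with Acly, 0.71 with Srebf1 and 0.24 with Thrsp. For Fasn the sets thus overlapped in these libraries. Among the 4, Me1 and Slc25a1 were most alike over all 11 libraries, at 0.67, and Acss2 and Slc25a1 without Knockout 2 and Knockout 5, at 0.81. Over the 12715 other tested genes the median r with Fasn was 0.01. Ranked among them by r with Fasn, Olah was at place 13, Acaca 21, Srebf1 49, Acly 122 and Thrsp 480, while Slc25a1 was at place 1636, Me1 at 3753, Acss2 at 8126 and Mlxipl at 8445.

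**Figure D4:**
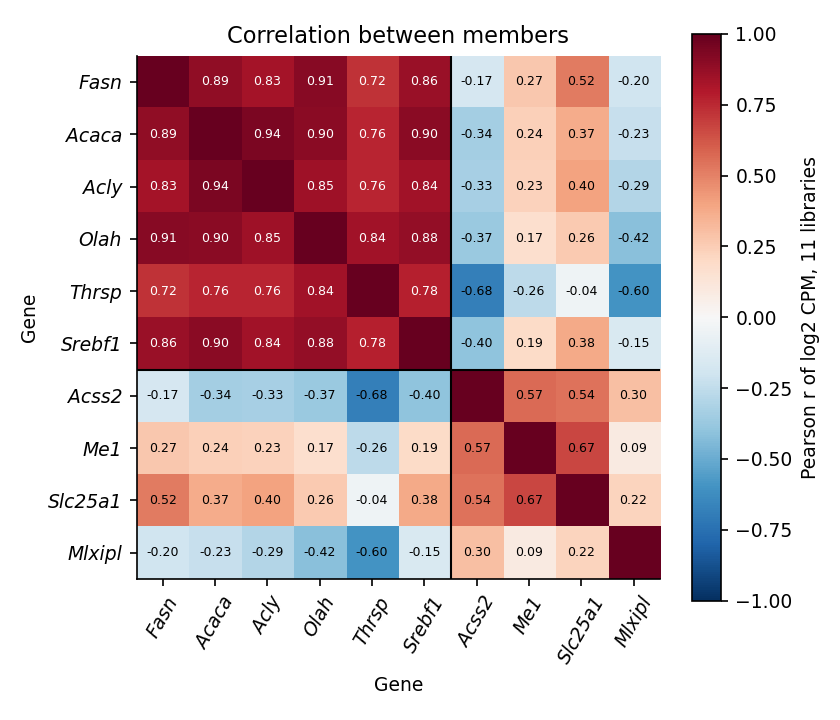
Pearson r of log2 CPM over 11 libraries for every pair of genes, with lines between the 6 genes that vary together and the other 4. The upper left block runs from 0.72 to 0.94, and the blocks that join both sets from -0.68 to 0.52.

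The genes most like each of 5 members were sought over all genes tested, by Pearson r over the 11 libraries. For Fasn they were Gne (r = 0.941), Gcdh (0.933), Hgh1 (0.933), Fam160a2 (0.930) and Isg20 (0.928). For Srebf1 they were Apln (0.980), Txndc11 (0.977), Srp68 (0.957), Wdr74 (0.954) and Abcf3 (0.954), of which Apln was below 1 CPM on average. For Olah they were Mavs (0.958), Rph3al (0.953), Apln (0.941), Atp2c2 (0.932) and Lpl (0.929), and for Thrsp Slc25a38 (0.969), Otub2 (0.934), Eif2b4 (0.931), Dnajc5 (0.925) and Paf1 (0.923). Without the 2 libraries farthest from the median of Thrsp these 5 fell to 0.863, 0.839, 0.789, 0.822 and 0.634, and Otub2 was below 1 CPM on average. Mlxipl had lower values, with Setd6 (0.891), Tirap (0.876), Simc1 (0.874), Cd93 (0.866) and Adcy10 (0.858), the last also below 1 CPM, and 0.118% of tested genes over 0.8 against 1.46% for Fasn and 1.53% for Srebf1. Left out in the same way, the lowest values were 0.763 for Mlxipl (Simc1), 0.877 for Fasn (Gcdh), 0.887 for Olah (Apln) and 0.898 for Srebf1 (Srp68). For the mean of the 10 members, each standardized, they included Nid2 (0.964), Fads2 (0.941), Odc1 (0.940) and Gcdh (0.930). Of these, Lpl, the lipase that takes fatty acids from blood lipids, was at 674 and 767 CPM on average in knockout and wild-type glands, and Fads2, a desaturase, at 95.3 and 126 CPM.

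Genes of the surrounding pathway were read from 6 lists of 52 genes, of which 50 were tested. None of the 50 passed the threshold. Of all 12716 genes tested, 6146 were above 0 with TMM scaling and 10542 with library totals only, so the lists' directions moved with those of all genes. Carbon and NADPH supply held 13 tested of 14 genes, 2 of them above 0 and 11 below, with a median log2 fold change of -0.15, but with library totals only 7 were above and 6 below. Unadjusted p was under 0.05 for 5 of the 13, against 12.4% of all genes, and with library totals only for 3 of the 13, against 2457 of 12716 genes. The other 5 lists held 2 such genes in all, 1 that processes SREBP and 1 SREBP-1 target. With library totals only they held 2 that process SREBP, 2 SREBP-1 targets, 1 of carboxylase restraint and 1 of mitochondrial fatty acid synthesis. Mpc2 and Mpc1 encode the mitochondrial pyruvate carrier. Mpc2 stood at 46.8 ± 4.81 CPM in knockout glands (SD, n = 6) and at 61.8 ± 7.72 CPM in wild-type glands (SD, n = 5), a difference of -0.40 ± 0.10 (log2, SE; adjusted p = 0.218 in edgeR). Mpc1 was at -0.36 ± 0.12 (edgeR adjusted p = 0.310), and both stayed below 0 with library totals only, at -0.21 and -0.16. Idh1, the cytosolic isocitrate dehydrogenase that yields NADPH, averaged 20.8 ± 3.55 CPM in knockout glands (SD, n = 6) and 15.1 ± 1.85 CPM in wild-type glands (SD, n = 5), and every knockout library lay above every wild-type library. It was at 0.46 ± 0.13 (log2, SE; adjusted p = 0.263 in edgeR), and at 0.66 with library totals only. Mdh1, which most cells are known to express, was listed at 0 reads in every library, and this 0 is not read as its level in the gland.

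Of the genes that process SREBP, 3 were above and 3 below 0, and all 6 above with library totals only. Mbtps2, a protease that frees SREBP from the membrane, was at 0.21 ± 0.10 (log2, SE; edgeR adjusted p = 0.401). Scap, the escort of SREBP to the Golgi, where it is cleaved, was at -0.11 ± 0.06 (adjusted p = 0.486), and Insig2, which holds Scap back, at 0.10 ± 0.09 (adjusted p = 0.708). Of 8 transcriptional partners and nuclear receptors, 1 was above and 7 below 0, which became 7 above and 1 below with library totals only. Usf1 was at -0.12 ± 0.08, Usf2 at -0.09 ± 0.06 and Mlxip at -0.16 ± 0.12 (log2, SE), with edgeR adjusted p-values of 0.562, 0.592 and 0.612.

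The list on restraint of acetyl-CoA carboxylase holds 6 subunits of AMP-activated kinase and 3 other genes, and 3 of the 9 were above and 6 below 0, against 7 and 2 with library totals only. Among the 6 below 0 were Acacb, a second acetyl-CoA carboxylase, and Mlycd, which breaks down malonyl-CoA. Stk11, the kinase upstream of AMP-activated kinase, was at 107 ± 8.27 CPM in knockout glands (SD, n = 6) and at 118 ± 5.46 CPM in wild-type glands (SD, n = 5), a difference of -0.14 ± 0.07 (log2, SE; adjusted p = 0.426 in edgeR). The subunits Prkab2 and Prkab1 were at 0.75 ± 0.40 and -0.27 ± 0.15 (log2, SE; edgeR adjusted p = 0.480 and 0.501), Prkab2 on less than 1 CPM on average. In mitochondrial fatty acid synthesis 6 of 7 genes were tested, 3 above and 3 below 0, and all 6 above with library totals only. Mecr was at -0.16 ± 0.08, Mcat at 0.13 ± 0.09 and Ndufab1 at -0.08 ± 0.10 (edgeR adjusted p = 0.415, 0.579 and 0.799).

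Of 8 SREBP-1 targets that act after palmitate, 5 were above and 3 below 0, and 6 and 2 with library totals only. Pnpla3, a lipase-like gene under SREBP-1, ranged from 38.7 to 86.8 CPM among knockout glands and from 21.4 to 55.8 CPM among wild-type glands, at 0.73 ± 0.32 (log2, SE; adjusted p = 0.387 in edgeR). Gpam, which starts glycerolipid synthesis, was at 0.26 ± 0.15 (adjusted p = 0.500), and Fads2 at -0.40 ± 0.27 (adjusted p = 0.566). Across the 11 libraries the 8 targets differed in their relation to Srebf1, with r of 0.84 for Fads2, 0.81 for Fads1, 0.74 for Scd2, 0.69 for Scd1, 0.16 for Pnpla3, -0.18 for Elovl5, -0.23 for Elovl6 and -0.33 for Gpam.

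Transcripts of several cell types varied with the 6 genes, and their part in the pattern was not tested. The summed level of the 9 epithelial markers, nearly all of it from casein and whey protein genes, had r = 0.68 with Fasn, 0.66 with Olah, 0.62 with Acaca, 0.55 with Acly, 0.41 with Thrsp and 0.40 with Srebf1. That sum ran from 340616 to 477505 CPM among knockout glands and from 422708 to 593888 CPM among wild-type glands. The single epithelial markers did not share 1 direction. Fasn had r of 0.74 with Csn1s1, 0.65 with Csn2, 0.66 with Csn3, 0.57 with Wap, 0.29 with Lalba and 0.21 with Elf5, but -0.62 with Krt8, -0.78 with Krt18 and -0.79 with Epcam, and Srebf1 had -0.58, -0.81 and -0.79 with the last 3. Krt8 and Krt18 encode keratins of luminal cells and Epcam an epithelial adhesion protein. Their fitted knockout minus wild-type values were 0.48, 0.31 and 0.25 (log2), while those of the other 6 were from -0.32 to -0.14. Of the 9, 1 had an unadjusted p under 0.05, Krt8, against 12.4% of all genes. With library totals only 4 of the 9 were above 0.

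The 5 fibroblast markers had r from -0.64 (Fasn) to -0.35 (Acly), and their sum was highest in Knockout 2, at 524 CPM against 164 to 378 CPM in the other libraries. All 5 were fitted above 0 under either scaling (median 0.36 with TMM scaling), 2 of them at an unadjusted p under 0.05, against 12.4% of all genes. The 9 adipocyte markers summed to between 714 and 828 CPM in knockout glands and between 614 and 827 CPM in wild-type glands, highest in Knockout 2, and the sum had r from -0.43 (Fasn) to -0.17 (Thrsp). Pnpla2, a lipase gene active in many tissues, and Fabp4 made up most of that sum, and Pnpla2 was fitted at -0.25 (log2) and had r = 0.44 with Fasn. Of the 9, 7 were fitted above 0 under either scaling (median 0.22 with TMM scaling). Unadjusted p was under 0.05 for 4 of them, against 12.4% of all genes: Fabp4 (0.35), Adipoq (0.40), Cidec (0.46) and Retn (0.35, log2), with edgeR adjusted p-values of 0.255, 0.263, 0.274 and 0.396. Fasn had r of -0.82 with Plin1, -0.81 with Lipe, -0.76 with Fabp4, -0.64 with Retn, -0.52 with Pparg, -0.29 with Cidec, -0.28 with Adipoq and 0.22 with Lep.

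Sums of the 5 B cell markers lay between 0.808 and 12.8 CPM in knockout glands and between 1.86 and 63.8 CPM in wild-type glands, highest in Wild-Type 5. Among those tested, Cd79a, Cd79b and Cd37 were fitted at -2.26, -2.92 and -2.62 (log2), each at an unadjusted p under 0.05, with edgeR adjusted p-values of 0.341, 0.313 and 0.313. The 5 T cell markers summed to between 0.955 and 5.51 CPM in knockout and between 0.840 and 22.0 CPM in wild type. Their sum was also highest in Wild-Type 5, and the 4 tested were below 0. With TMM scaling 2 of the 4 had an unadjusted p under 0.05, against 12.4% of all genes. With library totals only 0 of the 4 had one. Over the 6 genes, r ran from -0.23 (Acly) to 0.23 (Fasn) for the B cell sum and from -0.04 (Acly) to 0.30 (Fasn) for the T cell sum. The 5 skeletal muscle markers reached a sum of 2037 CPM in Knockout 1, and this sum had r from -0.53 (Acly and Olah) to -0.25 (Srebf1) with the 6 genes. All 5 skeletal muscle markers were fitted above 0, with 0 at an unadjusted p under 0.05. The sums of the 5 myoepithelial, 5 endothelial and 5 macrophage markers overlapped between genotypes. All 5 myoepithelial markers were fitted above 0 under either scaling (median 0.21 with TMM scaling). Unadjusted p was under 0.05 for 1 of them with TMM scaling, against 12.4% of all genes. With library totals only it was for all 5, against 2457 of 12716 genes, and 10542 of all genes were above 0. The sum of these markers had r = -0.60 with Fasn and from -0.37 (Srebf1) to -0.25 (Thrsp) with the others of the 6 genes. Of the endothelial markers 4 of 5 were above 0 and 0 had an unadjusted p under 0.05, and of the macrophage markers 2 of 5 were above 0 and 1 had one. With library totals only 5 endothelial and 4 macrophage markers were above 0, and 0 of either list had an unadjusted p under 0.05. The TMM factors, 0.970 to 1.22 in knockout and 0.842 to 1.09 in wild-type libraries, had r = -0.67 with log2 CPM of Fasn and -0.68 with that of Olah.

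Fasn, Me1, Olah and Thrsp were each read from 1 main transcript model. Acly was split between Acly-201, at 55.9% ± 3.01 (SD, n = 6) of its TPM in knockout glands and 59.3% ± 3.01 (SD, n = 5) in wild-type glands, and Acly-203. Acaca-202 held 73.8% ± 2.19 of Acaca TPM in knockout and 75.8% ± 3.81 in wild-type glands. The partial model Slc25a1-203 held 8.56% ± 2.09 of Slc25a1 TPM in knockout and 12.7% ± 2.26 in wild-type glands. Mlxipl-202 held 18.8% ± 5.41 of Mlxipl TPM in knockout and 8.99% ± 8.39 in wild-type glands. These shares were not tested.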

How the data were processed

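RNA of 11 inguinal mammary glands was sequenced as total RNA purified with the PureLink kit and made into strand-marking NEBNext Ultra II Directional libraries, per the labels' protocols. Salmon 1.3.0, DESeq2 1.28.1 and GRCm38.p6 are named in the submitters' processing notes, with no roles given there. The deposited transcript tables, per the file headers, hold estimated counts, TPM, length and effective length; the table of gene values normalized with DESeq2, deposited by the authors, is treated as signal on their scale. Of 56929 transcripts with a coding sequence in GENCODE M21, 94.3% had a listed length within 3 bases of the coding length.

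Estimated counts were summed per gene through GENCODE M21 identifiers and rounded (58204 transcripts, 752 unmatched with 0.195% to 0.265% of reads, 22196 genes). Depth was 25817975 to 37894237 reads. The test was edgeR 4.0.16 (R 4.3.3), quasi-likelihood with robust estimation, TMM and filterByExpr, with genotype alone in the model and p-values adjusted over 12716 genes (Benjamini-Hochberg, threshold 0.05); the common biological coefficient of variation was 24.1%. CPM are TMM-scaled, and log2 CPM for correlations have a prior count of 2. Exact permutation tests were two-sided over the 462 splits of all 11 libraries, or over the splits of those kept where 1 was left out. The permutation test was checked against scipy 1.17.1. With the replicate block an exact sign-exchange test over the shared replicate numbers was used instead. Alternatives used DESeq2 1.42.0, limma 3.58.1 on log2(value + 1), other scaling, filters, length offsets and left-out libraries. Statistics were tested on simulated data. Nothing says which glands were from separate litters or handled together, and if samples share a source the p-values measure only the spread between these samples.

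The members and lists were chosen with earlier results of these data known. Named are all members, every list gene past the threshold or otherwise the 3 with the smallest p in each list, and the 5 genes most like each of 5 members and their mean, predicted names passed over; 1 gene that this rule names and 1 marker are not reported here. Promoters are from RefSeq on GRCm38.p6, and 14 were matched to the members.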

Additional observations from a re-analysis of the deposited data

Results flagged for a closer look

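Among 24 sets of values, each a gene or ratio in 1 genotype, 2 held a library far from the others of its genotype; chance gives about 1 in 20 such sets, or 1.20 here. Acly stood at 1786 CPM in Knockout 5, while the other 5 knockout libraries had 766 to 1110.3 CPM, a gap of 0.663 of the whole range. Acss2 stood at 132 CPM in Knockout 2, while the others had 86.0 to 97.3 CPM, a gap of 0.756 of the range. No cause was tested for either.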

How the results depend on the processing

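Over 220 alternatives for the 10 members, 0 passed the threshold, the smallest adjusted p was 0.243 (Fasn without Knockout 5), and 26 changed sign. Of these, 10 came from 2 settings that moved the median of all genes from -0.01 to 0.18 and 0.14, and 16 from the others. With library totals only, Acaca was 0.01, Acly 0.15, Acss2 0.07, Me1 0.06 and Srebf1 0.09 (log2), and with limma on log2(TPM + 1) 0.02, 0.15, 0.08, 0.09 and 0.09; both were added after seeing the data, and members below 0 numbered 3 of 10 in each, against 8. Thrsp was -0.05 on the authors' table and -0.08 with the replicate block, and Mlxipl was -0.01 without Knockout 2 and 5 and 0.25 to 0.37 with length offsets, on the authors' table and on TPM. Leaving out 1 library gave -0.24 to 0.05 for Acly (its highest without Knockout 2), -0.13 to 0.18 for Thrsp, -0.29 to 0.01 for Srebf1 and -0.03 to 0.18 for Mlxipl, with sign changes in 4, 5, 1 and 3 of 11 sets. It gave -0.66 to -0.32 for Fasn, -0.42 to -0.06 for Acaca and -0.36 to -0.08 for Olah (lowest without Knockout 5 and highest without Knockout 2 for all 3), -0.29 to -0.16 for Slc25a1, -0.24 to -0.10 for Acss2 and -0.19 to -0.07 for Me1. Genes past the threshold numbered 135 with DESeq2 (81 higher), 3 with limma on TPM, 17 without Knockout 2 and 5, 9 with library totals only, and 0 (without Knockout 3 or Knockout 6) to 28 (without Knockout 2) with 1 library left out, against 7. The replicate block, over the 5 shared numbers, left 0 genes past the threshold and 1023 at an unadjusted p under 0.05. Same-numbered libraries had correlations of deviations from -0.223 to 0.187. These were not set against other pairs of libraries, so whether the numbers mark a shared litter or day was not tested. The Olah to Fasn difference was 0.24 on estimated counts (exact permutation p = 0.0433) and 0.14 to 0.26 with 1 library left out (p = 0.0286 to 0.133), and passed without Knockout 1, Knockout 5 or Wild-Type 1. With the replicate block it was 0.18 (exact sign-exchange test, p = 0.250, where 5 pairs allow no p below 0.0625). The SREBP-1a type share differed by -0.10 percentage points with the replicate block and by -0.38 to 0.51 with 1 library left out. The cause of these changes was not tested. Depth limits Mlxipl most, at 267 reads or more per library.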
